A study of Mus musculus with 4 samples.

Results

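The heat shock proteins of the cytosol and the mitochondrial matrix, and Hsf1, the transcription factor that drives their induction, were examined in bone marrow LSK cells of aged mice. The 10 genes were taken by symbol from the deposited gene table of 24421 genes: Hspa8, Hspa1a, Hspa1b, Hsph1, Dnajb1, Hsp90aa1, Hsp90ab1, Hspd1, Hspe1 and Hsf1. All 10 were matched, and all 10 passed the filter on low counts that left 13296 genes for testing. LSK stands for the marrow cells without lineage markers that carry Sca1 and Kit, among them the blood stem cells and multipotent progenitors. There were 2 libraries from wild-type (WT) mice and 2 from mice with the genotype p53R248W/+ (called mutant below, and always heterozygous), which carry a missense mutation of the tumour suppressor p53 on 1 allele beside the wild-type allele. All mice were 13 to 15 months old, no treatment is given for any group, and the promoter or cells in which the mutant allele is active are not stated. It is not stated whether replicates came from separate or pooled animals, and the p-values can speak only for the spread between libraries, which may be technical. Values of a genotype are given in the order of replicates 1 and 2.

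Chaperones bind unfolded stretches of other proteins and help them to fold or refold. The HSP70 proteins bind short hydrophobic segments in a cycle of ATP hydrolysis that J-domain proteins start and exchange factors end, and HSP90 takes over late folding steps of kinases and steroid receptors. In the matrix of mitochondria, HSP60 forms a chamber that HSP10 closes as a lid. In unstressed cells HSF1 is held inactive by chaperones. When unfolded proteins draw the chaperones away, it trimerises and binds heat shock elements, which are alternating repeats of the letters GAA and TTC in the promoters of its targets. Blood stem cells are known for a low rate of protein synthesis and for their sensitivity to misfolded protein.

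The heat shock elements upstream of the members are shown because they are the sites through which HSF1 is known to act on these genes. RefSeq promoter sequences (GRCm38.p6, the assembly of mm10) were found for 6 of the 10 members, Hspa1a, Hspa1b, Hsph1, Dnajb1, Hspd1 and Hspe1, and the start of each in the deposited table was the start of an entry. The 250 bases before the start were searched on both strands. The 3-unit element (TTC, GAA and TTC, or the reverse complement, with 2 free bases between units) was found upstream of Hspd1 and Hspe1. It occurred in 0.466% of all 32851 promoters in that table, and in 0.514% of genes when any promoter of a gene counted. A further Hspd1 promoter entry (chr1:55088244-55088493, minus strand) held neither this element nor the 2-unit forms given below. The deposited starts of Hspd1 and Hspe1 lie back to back with 215 bases between them, so the windows overlap, and both hold the same element. It lies within chr1:55088053-55088082, printed on the plus strand, on which Hspe1 is read, with the element in capitals and its first base 89 bases before the Hspe1 start.
Hspd1 and Hspe1 element: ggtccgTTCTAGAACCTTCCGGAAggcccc
The capitals hold 18 bases that alternate between TTC and GAA in 4 units. The Hsph1 window held the 2-unit element TTCNNGAA within chr5:149636351-149636380 on the minus strand, with its first base 54 bases before the start.
Hsph1 element: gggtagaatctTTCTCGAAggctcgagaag
That 8-base motif, which is contained in the 3-unit element, occurred in 7.17% of all promoters. The windows of Hspa1a (chr17:34972157-34972406, minus strand) and Hspa1b (chr17:34959239-34959488, minus strand) each held the other 2-unit form, GAANNTTC, in capitals, which occurred in 6.69% of all promoters. They are printed in full because they differ at 3 of 250 bases.
Hspa1a: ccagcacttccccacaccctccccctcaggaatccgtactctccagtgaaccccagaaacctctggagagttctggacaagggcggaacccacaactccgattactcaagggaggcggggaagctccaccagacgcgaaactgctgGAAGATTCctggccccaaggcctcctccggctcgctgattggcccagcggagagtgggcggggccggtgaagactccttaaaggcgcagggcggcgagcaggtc
Hspa1b: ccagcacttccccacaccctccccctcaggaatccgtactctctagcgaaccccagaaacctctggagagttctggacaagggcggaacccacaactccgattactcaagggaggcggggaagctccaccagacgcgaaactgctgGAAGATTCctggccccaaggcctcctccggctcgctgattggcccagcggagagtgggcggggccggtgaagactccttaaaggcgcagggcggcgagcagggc
In the Dnajb1 window none of the 3 searched forms of the element was found, and a CCAAT box was, as in Hspa1a, Hspa1b and Hsph1 and in 33.8% of all promoters. The bases after the Dnajb1 start were not found near the start of a GENCODE transcript of that gene. Those of the other members were, so the position of the Dnajb1 window is less certain. The letters TATAAA were in no window of the 6 members and in 12.4% of all promoters. A match of letters is a description of the sequence and not a measured binding site.

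Several members have near copies elsewhere in the genome, which bears on how far their counts can be trusted. Each member's longest GENCODE M21 transcript was cut into all its 50-base words, and the words also found in a transcript of another gene were counted. The share was 66.3% for Hspa1a and 62.3% for Hspa1b, mostly with each other. It was 58.5% for Hsp90aa1, 52.7% for Hspa8 and 44.8% for Hspd1, mainly with processed pseudogenes such as Gm12346, Gm15459 and Hspd1-ps3. It was 8.20% for Hspe1, 4.49% for Hsp90ab1 and 0.441% for Dnajb1, and no word of Hsph1 or Hsf1 was shared. No exon of a member overlapped an exon of another gene in the deposited table. The sources used here do not state whether reads with several alignments were counted, so the levels of Hspa1a, Hspa1b, Hsp90aa1, Hspa8 and Hspd1 are uncertain, and the part of this in the differences was not tested.

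The libraries held 12111126 to 14820759 counted reads, and 3 counts, the limit that a count of 0 allows, lay at 0.202 to 0.248 CPM per library (counts relative to a TMM-adjusted library total); this limit covers counting error only, since PCR copies are not independent molecules. The sort markers were present, with Kit at 911 to 1182 CPM and Ly6a, which encodes Sca1, at 40.2 to 82.9 CPM. Marker lists of other cells were summed over the matched genes. The 9 erythroid genes came to 32.9 to 39.5 CPM, with Hba-a1, Hbb-bs and Hbb-bt at 0 in all 4 libraries. The sums of 9 B cell genes came to 8.44 and 13.7 CPM in the WT libraries and 45.8 and 24.4 CPM in the mutant libraries, with Pax5 at 0 throughout. All 4 B cell genes that were tested were higher in both mutant libraries than in both WT libraries, against 16.9% of all tested genes. The sums of 7 megakaryocyte genes were 105 and 110.05 CPM in the WT libraries against 62.4 and 49.2 CPM in the mutant libraries. The part of these cells in the results was not tested. On the first principal component (43.2% of the variance), WT replicate 1 and p53R248W/+ replicate 1 were farthest apart. In bulk RNA, fewer cells with a transcript and less of it per cell cannot be told apart.

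Levels were compared between genes per exon length, as FPKM, the CPM value divided by the deposited exon length in kilobases. The constitutive chaperones were among the most abundant transcripts of LSK cells. Hsp90ab1, the constitutive HSP90, had a mean of 913 FPKM over the 4 libraries and ranked 15 among all 24421 genes. Hspa8, the constitutive HSP70, had a mean of 765 FPKM and ranked 24. The ranges of Hsp90ab1 (769 to 1021 FPKM) and Hspa8 (567 to 953 FPKM) overlapped. Next came Hsp90aa1, the stress-responsive HSP90, at 268 to 319 FPKM, and Hspd1, which encodes HSP60, at 194 to 200.01 FPKM. Each of these was separate from its neighbours in the order. Hspe1, which encodes HSP10, was at 45.5 to 104 FPKM. Its range overlapped that of Dnajb1, a J-domain partner of HSP70, at 46.8 to 71.6 FPKM, and of Hsph1, an HSP110 exchange factor, at 42.9 to 60.8 FPKM. Hsf1 was at 29.1 to 44.9 FPKM and overlapped Hsph1 only through WT replicate 1 of both genes. The stress-induced Hspa1a and Hspa1b stood far below, at 0.0723 to 1.22 and 0.0248 to 0.474 FPKM.

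**Figure D1:**
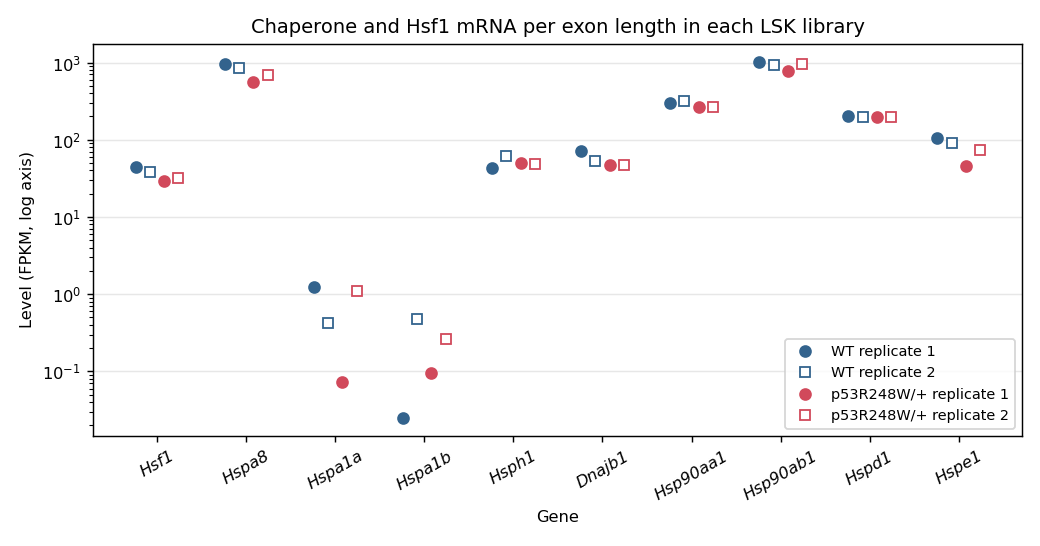
Level of each gene in FPKM on a log axis (vertical) for the 10 genes (horizontal), with 1 point per library, WT in blue and p53R248W/+ in red. Hsp90ab1 and Hspa8 lie at the top, at 567 to 1021 FPKM, and Hspa1a and Hspa1b lie below 1.23 FPKM in every library.

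The comparison of p53R248W/+ with WT cells asks which transcripts differ when the mutant allele is present. No member passed the threshold, an adjusted p of 0.05 over all 13296 genes with edgeR's quasi-likelihood test, nor did any other gene (0% called). At an unadjusted p under 0.05 there were 2 members, Hspa8 and Hspe1, both lower in p53R248W/+ (Hspe1 not under every setting, as given with its values), where 380 of all tested genes (2.86%) were lower at that level, 400 (3.01%) were higher and 780 (5.87%) differed in either direction. DESeq2 also called no member, and called 7 genes in all (0.0511%). All 10 members had a negative log2 fold change (p53R248W/+ over WT), as did 6649 of all tested genes (50%). In 6 members, Hspa8, Hsp90aa1, Dnajb1, Hspd1, Hspe1 and Hsf1, both p53R248W/+ libraries lay below both WT libraries, against 16.6% of all tested genes. The median log2 fold change was -0.43 over the members, including the poorly counted Hspa1a and Hspa1b, and -8.81e-05 over all tested genes. The median was -0.13 without p53R248W/+ replicate 1 and -0.27 without WT replicate 1. Together the members took 0.634% and 0.607% of all counted reads in WT replicates 1 and 2, against 0.476% and 0.546% in the mutant libraries.

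Hsf1, the regulator (chromosome 15, 76477445 to 76500972, plus strand, 12 exon blocks in mm10), was at 90.5 and 77.5 CPM in WT replicates 1 and 2 and at 58.7 and 64.7 CPM in p53R248W/+ replicates 1 and 2. Both mutant libraries were lower than both WT libraries, and the lowest WT library was closer to the highest mutant one than to the other WT one. This is -0.45 ± 0.28 as a log2 fold change (SE, 2 libraries per genotype), with a 95% interval from -1.04 to 0.14 and an adjusted p of 0.835 (edgeR quasi-likelihood test). It stayed between -0.55 and -0.33 when each library was left out in turn. HSF1 is controlled largely at the protein level, which mRNA counts do not measure.

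Hspa8 (chromosome 9, 40801273 to 40805199, plus strand, 9 exon blocks) encodes HSC70, the HSP70 that folds new proteins in unstressed cells and also strips clathrin coats and feeds chaperone-mediated autophagy. It measured 2005 and 1808 CPM in the WT libraries and 1193 and 1430 CPM in the mutant libraries, from 17312 to 28754 counts per library. The groups did not overlap, and the gap between them was larger than the distance between the replicates of either genotype. The mean was 31.2% lower in p53R248W/+, with a log2 fold change of -0.54 ± 0.13 (SE, n = 2 per genotype) and a 95% interval from -0.81 to -0.28. Its unadjusted p of 4.47e-04 was the third smallest of all genes, and its adjusted p was 0.824 (edgeR quasi-likelihood test). The adjusted p was 0.219 with DESeq2 and ranged from 0.219 to 0.999 over all the settings tried, of which none called the gene. Its log2 fold change lay between -0.68 and -0.42 when each library was left out in turn.

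Hspa1a and Hspa1b, the HSP70 copies that heat and handling stress induce strongly, are single-exon genes 10120 bases apart on chromosome 17 (34969359 to 34972156 and 34956429 to 34959238, minus strand). Hspa1a had 49 and 17 counts in WT replicates 1 and 2 and 3 and 37 counts in p53R248W/+ replicates 1 and 2. Hspa1b had 1 and 19 counts in WT and 4 and 9 counts in p53R248W/+. The genotypes overlapped for both genes, and the lowest libraries were at or near the limit of 3 counts. The sum of both copies was 50 and 36 counts in WT and 7 and 46 counts in p53R248W/+, with a log2 fold change of -0.61 ± 1.08 (SE). The 95% interval ran from -3.16 to 1.90 for Hspa1a and from -3.93 to 2.88 for Hspa1b, so a difference of several fold in either direction was not detectable at this depth. The direction of Hspa1a turned without WT replicate 1 (0.32) and without p53R248W/+ replicate 1 (0.40), and that of Hspa1b without p53R248W/+ replicate 1 (0.09).

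The partners of the HSP70 cycle among the members were Dnajb1, which stimulates its ATPase, and Hsph1, which exchanges its nucleotide and helps to dissolve aggregates. Dnajb1 (chromosome 8, 83608175 to 83612653, plus strand, 4 exon blocks) measured 231 and 171 CPM in the WT libraries and 153 and 151 CPM in the mutant libraries. WT replicate 1 stood above the other 3 libraries, which lay between 151 and 171 CPM. As a log2 fold change this is -0.40 ± 0.21 (SE), with an adjusted p of 0.825 (edgeR quasi-likelihood test), and it was -0.16 without WT replicate 1. Hsph1 (chromosome 5, 149616845 to 149636315, minus strand, 18 exon blocks) measured 149 and 211 CPM in the WT libraries and 175 and 171 CPM in the mutant libraries. Its mutant libraries lay between the WT ones, and its log2 fold change of -0.06 ± 0.21 (SE) had a 95% interval from -0.51 to 0.39 and was 0.22 without WT replicate 2 and -0.29 without WT replicate 1. The ratio of Hspa8 to Dnajb1 in FPKM was 13.3 and 16.3 in WT and 11.9 and 14.5 in p53R248W/+, with overlapping groups. The ratio of Hspa8 to Hsph1 was 22.2 and 14.1 in WT and 11.3 and 13.8 in p53R248W/+. These groups did not overlap, but the WT replicates differed more than the genotypes' nearest libraries.

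The HSP90 pair consists of the stress-responsive Hsp90aa1 and the constitutive Hsp90ab1, which fold kinases and hormone receptors and also bind p53 itself. Hsp90aa1 (chromosome 12, 110691036 to 110696395, minus strand, 11 exon blocks) measured 839.97 and 909 CPM in the WT libraries and 763 and 765 CPM in the mutant libraries. The mutant libraries were nearly equal and lay below both WT libraries. Its log2 fold change of -0.20 ± 0.13 (SE) had a 95% interval from -0.47 to 0.08 and an adjusted p of 0.852 (edgeR quasi-likelihood test). Hsp90ab1 (chromosome 17, 45567778 to 45573261, minus strand, 11 exon blocks) measured 2561 and 2299 CPM in the WT libraries and 1928 and 2368 CPM in the mutant libraries. Here p53R248W/+ replicate 1 was lowest and replicate 2 lay between the WT libraries. The log2 fold change was -0.18 ± 0.12 (SE), and it moved to -0.10 without WT replicate 1, to -0.04 without p53R248W/+ replicate 1 and to -0.33 without replicate 2 of that genotype. Per exon length, Hsp90ab1 exceeded Hsp90aa1 by 3.47 and 2.87 times in WT and by 2.87 and 3.52 times in p53R248W/+. The ratio therefore spanned almost the same range in both genotypes.

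The mitochondrial pair, which shares the promoter region and the element printed above, differed in its values. Hspd1 (chromosome 1, 55077834 to 55087932, minus strand, 12 exon blocks) was the steadiest member, with 466 and 462 CPM in the WT libraries and 456 and 453 CPM in the mutant libraries. All 4 libraries lay within a narrow band, and although the mutant ones were below the WT ones, the log2 fold change was -0.03 ± 0.15 (SE), with a 95% interval from -0.34 to 0.29. Hspe1 (chromosome 1, 55088148 to 55091317, plus strand, 4 exon blocks) measured 80.1 and 68.9 CPM in the WT libraries and 34.9 and 57.3 CPM in the mutant libraries. The genotypes did not overlap, but the mutant replicates differed by 1.64 times, more than the gap between the genotypes. The mean was 38.1% lower, with a log2 fold change of -0.71 ± 0.32 (SE), a 95% interval from -1.40 to -0.03, an unadjusted p of 0.0412 and an adjusted p of 0.824 (edgeR quasi-likelihood test). It moved to -0.38 without p53R248W/+ replicate 1 and to -1.09 without replicate 2 of that genotype. Its unadjusted p in the edgeR quasi-likelihood test was above 0.05 without WT replicate 1 (0.178), WT replicate 2 (0.0658) or p53R248W/+ replicate 1 (0.322), with the replicate block (0.0569) and with the legacy method (0.0506). The ratio of Hspd1 to Hspe1 in FPKM was 1.92 and 2.21 in WT and 4.30 and 2.61 in p53R248W/+. The groups did not overlap, with a two-sided exact permutation p of 0.333, which is the smallest that 2 against 2 libraries allow. Over the 4 ratios of members computed, the Benjamini-Hochberg adjusted values of these exact tests ran from 0.667 to 1.

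**Figure D2:**
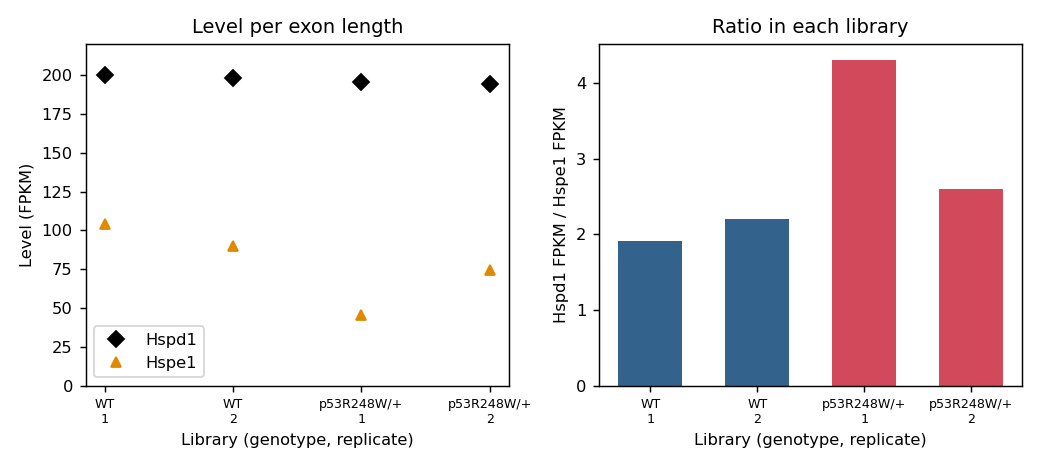
Left, the level of Hspd1 (black diamonds) and Hspe1 (orange triangles) in FPKM in each library; right, their ratio as 1 bar per library, WT in blue and p53R248W/+ in red. Hspd1 stays between 194 and 200.01 FPKM in all libraries, and the ratio is 1.92 and 2.21 in WT against 4.30 and 2.61 in p53R248W/+.

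**Figure D3:**
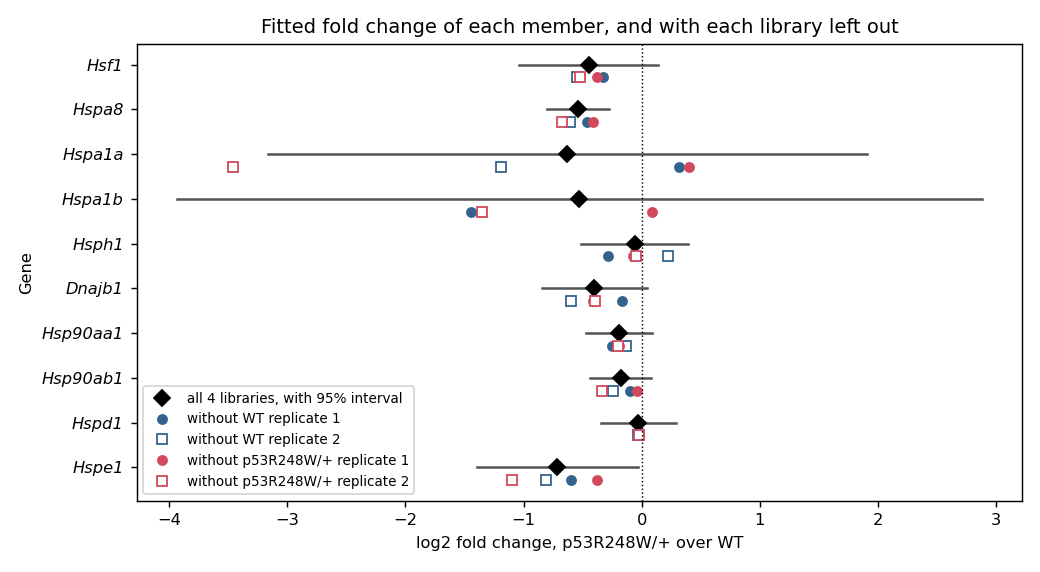
Log2 fold change of p53R248W/+ over WT (horizontal) for each gene (vertical). Black diamonds with lines are the fit over all 4 libraries with its 95% interval, and the points beneath are the fits with 1 library left out. The interval excludes 0 for Hspa8 and Hspe1, before any adjustment for the number of genes, and spans several log2 units for Hspa1a and Hspa1b; Hspa1b has no point without WT replicate 2, where it did not pass the filter.

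Genes that work with the members were taken from lists of chaperones and cofactors. Of 127 such genes outside the 10 members, 118 were tested, none passed the threshold, 8 were lower at an unadjusted p under 0.05 and 1 was higher (2.86% and 3.01% of all tested genes). Their median log2 fold change was -0.07, with 78 negative and 40 positive values, and the genotypes did not overlap in 29 that were lower and 16 that were higher (16.6% and 16.9% of all tested genes). Among the 14 tested of 16 other known HSF1 target genes, 9 were lower and 5 higher, with a median of -0.02. Stip1, the adaptor that hands clients from HSP70 to HSP90, measured 177 and 153 CPM in the WT libraries and 106 and 114 CPM in the mutant libraries. Its log2 fold change was -0.58 ± 0.22 (SE). Dnaja1, a J-domain protein, measured 439 and 459 CPM in the WT libraries and 299 and 400.02 CPM in the mutant libraries. The log2 fold change came to -0.36 ± 0.17 (SE), or -0.17 with p53R248W/+ replicate 1 left out and -0.59 with replicate 2 of that genotype left out. Adjusted p was 0.824 for both genes (edgeR quasi-likelihood test).

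The small heat shock proteins, which hold unfolded proteins without ATP, had few counts or none. Of 10 genes 3 had enough counts to be tested, all lower, with a median of -0.11. Hspb2, Hspb3 and Cryaa had no count in any library, and Hspb1, the main stress-induced member, was at 0 to 0.743 CPM. Of the tested genes, Hspb6 measured 4.95 and 14.2 CPM in the WT libraries and 11.0 and 6.28 CPM in the mutant libraries. Hspb11, which is in the list by its name, was at 5.09 and 7.65 CPM in WT cells and 3.91 and 4.96 CPM in mutant cells. Whether its protein acts as a chaperone was not examined here. Of the other HSF genes with Hsbp1, 4 of 5 were tested, with 3 lower and 1 higher (median -0.05). Hsf2 measured 27.1 and 35.8 CPM in the WT libraries and 31.6 and 27.4 CPM in the mutant libraries. Hsbp1, which encodes a small protein that binds HSF1 trimers, measured 83.0 and 128 CPM in the WT libraries and 141 and 135 CPM in the mutant libraries. In the fit its log2 fold change came to 0.39 ± 0.25 (SE), and to 0.12 without WT replicate 1 and 0.74 without WT replicate 2.

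Of the 17 genes of HSP90 relatives and cochaperones, 11 were lower and 6 higher (median -0.03). Fkbp5, a steroid receptor cochaperone and a glucocorticoid-induced gene, measured 115 and 69.0 CPM in the WT libraries and 57.9 and 56.3 CPM in the mutant libraries. In the fit the log2 fold change came to -0.68 ± 0.31 (SE), and to -0.27 without WT replicate 1. Ptges3, which encodes the cochaperone p23, measured 279.8 and 271 CPM in the WT libraries and 209 and 254 CPM in the mutant libraries. Of the 14 genes of the TRiC chaperonin, which folds actin and tubulin, and of prefoldin, 11 were lower and 3 higher (median -0.21). In 8 of them both mutant libraries were below both WT libraries, and in 2 both were above (16.6% and 16.9% of all tested genes). The TRiC subunit genes Cct7, Cct2 and Cct5 had log2 fold changes of -0.50 ± 0.22, -0.34 ± 0.16 and -0.32 ± 0.18 (SE). The Cct2 value was -0.23 without WT replicate 1.

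Of the 11 further HSP70 and HSP110 genes, 8 were lower and 3 higher (median -0.16). Hspa5, the HSP70 of the endoplasmic reticulum, measured 996 and 977.5 CPM in the WT libraries and 685 and 765 CPM in the mutant libraries. The log2 fold change came to -0.45 ± 0.13 (SE; adjusted p = 0.824, edgeR quasi-likelihood test). Hspa12b, an atypical relative known from endothelium, lay in the other direction, at 18.2 and 24.3 (WT) and 35.2 and 46.5 (mutant) CPM. Hyou1, the HSP110 of that compartment, had a log2 fold change of -0.29 ± 0.24 (SE), which ranged from -0.55 (p53R248W/+ replicate 1 left out) to -0.08 (replicate 2 of that genotype left out). Of 15 endoplasmic reticulum chaperones 11 were lower (median -0.13). Calr, the lectin chaperone calreticulin, had a log2 fold change of -0.58 ± 0.20 (SE), which was -0.30 without WT replicate 1, while Hsp90b1, the HSP90 of the reticulum, was at 0.07 ± 0.14 (SE).

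Among the 34 tested of 35 J-domain genes, 23 were lower and 11 higher (median -0.09). Dnajc21, a cofactor of ribosome assembly, measured 54.5 and 57.3 CPM in the WT libraries and 31.5 and 38.6 CPM in the mutant libraries. Dnajb11, of the endoplasmic reticulum, was at 111 and 83.8 CPM in WT cells and 61.9 and 73.5 CPM in mutant cells. The 10 exchange factors and adaptors of HSP70 had 5 lower and 5 higher genes (median 0.01). Bag4 measured 23.2 and 22.4 CPM in the WT libraries and 35.7 and 46.0 CPM in the mutant libraries. Bag6 was at 167 and 162 CPM in WT cells and 121 and 131 CPM in mutant cells. Bag5 was at 48.7 and 48.9 CPM in WT cells and 64.5 and 50.1 CPM in mutant cells. The 18 mitochondrial chaperones and proteases had 10 lower and 8 higher genes (median -0.03). Timm44, which tethers HSP70 to the import channel, measured 53.1 and 51.2 CPM in the WT libraries and 28.7 and 26.6 CPM in the mutant libraries. Its log2 fold change was -0.91 ± 0.36 (SE). Its partner Pam16 had a log2 fold change of 1.02 ± 0.67 (SE) and Dnajc15 of -0.70 ± 0.66 (SE), which turned to 0.29 without WT replicate 1 and was -1.58 without p53R248W/+ replicate 1. None of these passed the threshold.

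**Figure D4:**
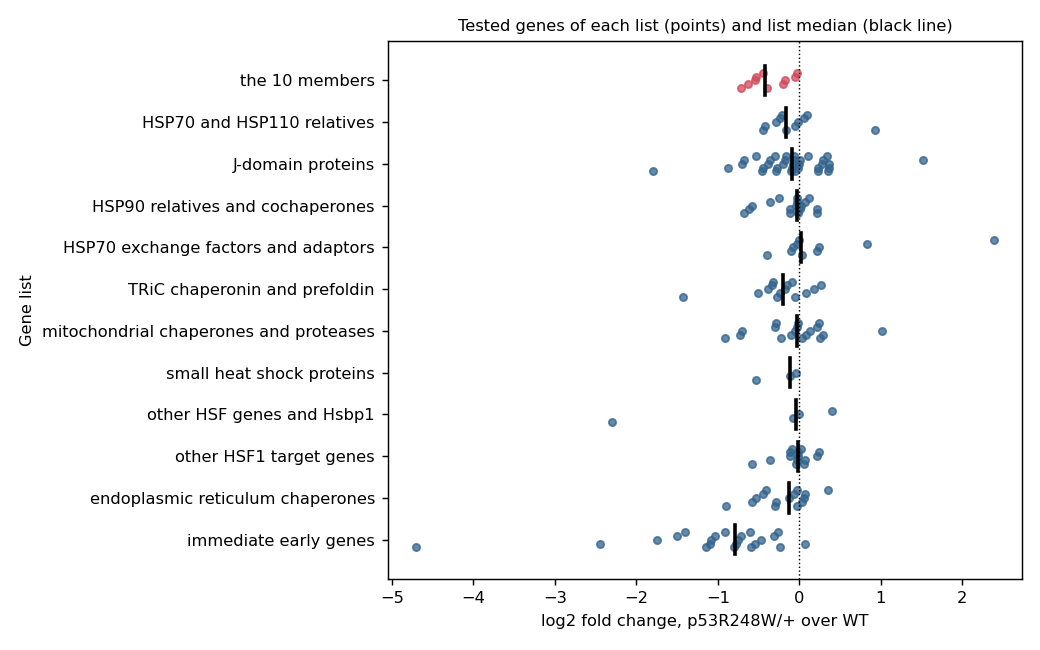
Log2 fold change of p53R248W/+ over WT (horizontal) for every tested gene of each list (vertical), the 10 members in red and the other lists in blue, with black lines at the medians. The medians of the other chaperone lists run from -0.21 to 0.01, that of the members is -0.43 and that of the immediate early genes is -0.79; some genes are in more than 1 list.

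Immediate early genes, which respond within minutes to stress and to cell handling, had summed levels in the same order across the libraries as the members. Their 22 genes summed to 9834 and 5917 CPM in the WT libraries and 4551 and 5242 CPM in the mutant libraries, and the members summed to 6426 and 6009 CPM against 4763 and 5464 CPM. Both sums were highest in WT replicate 1 and lowest in p53R248W/+ replicate 1. The order of the members' sum rested on the abundant Hspa8 and Hsp90ab1. Without these genes the members summed to 1861 and 1902 CPM in the WT libraries and 1641.5 and 1666 CPM in the mutant libraries. That sum was highest in WT replicate 2. In the list 21 genes were lower and 1 higher, 11 were lower at an unadjusted p under 0.05 (2.86% of all tested genes), and none passed the threshold. Its 5 genes with the highest mean CPM, which is not set per length, were the transcription factors Egr1, Klf6 and Jun, the RNA-decay factor Zfp36 and the phosphatase Dusp1. Klf6 measured 951 and 727 CPM in the WT libraries and 418 and 562 CPM in the mutant libraries. Egr1 was at 2125 and 1421 CPM in WT cells and 1393 and 1560 CPM in mutant cells. Their part in the difference of the members was not tested. Without WT replicate 1, the library with the highest immediate early sum, Hspa8 was at -0.46, Hspe1 at -0.60, Hsf1 at -0.33 and Dnajb1 at -0.16 on the log2 scale. In that fit Hsp90ab1 was at -0.10, Hspd1 at -0.02 and Hspa1a at 0.32. Hsp90aa1 (-0.25), Hsph1 (-0.29) and Hspa1b (-1.45) were more negative there than in the fit over all libraries.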

How the data were processed

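Messenger RNA of sorted LSK cells was sequenced in 4 libraries, 2 per genotype, grouped by the sample titles. The deposited values are raw read counts per gene symbol. The submitters' processing notes name STAR 2.7.10a and featureCounts of Subread 2.0.3 on mm10, with FastQC 0.11.5 and edgeR 3.40.2. Whether these versions made the deposited counts was not checked. Strand and multiple-alignment settings are not given in the sources used here. The deposited exon length set FPKM, and the deposited gene positions, strand and exon blocks were used to locate genes.

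Genes were filtered with filterByExpr (minimum count 10, minimum total 15), scaled by TMM and tested with edgeR 4.0.16 in R 4.3.3 (glmQLFit with robust=TRUE and legacy=FALSE, glmQLFTest, genotype only, Benjamini-Hochberg over all tested genes). The SE is the log2 fold change divided by the root of the F statistic. SDs over 2 libraries are replaced by both values. The test was checked on simulated data. Alternatives were DESeq2 1.42.0, other scalings and filters, a block on the replicate number, and the omission of single libraries.

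The members and lists were chosen with earlier results of these data known. Named beside the members were up to 3 genes per chaperone list with the smallest unadjusted p and a mean of at least 5 CPM, and the 5 most abundant immediate early genes; the markers, pseudogenes and further small heat shock genes that are named were picked with values in view. The planned protein comparison was not made, since protein sequences were not used here. Ly6g was not matched. Marker sums were also taken for T and NK cells (73.3 to 90.0 CPM), neutrophils and monocytes (105.8 to 139 CPM) and mast cells and basophils (26.1 to 57.6 CPM). The sum of 9 LSK genes was 2440 and 2563.5 CPM in the WT libraries and 3252 and 2817 CPM in the mutant libraries. Of these genes 7 were higher and 2 lower in p53R248W/+, and their part in the results was not tested.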

Additional observations from a re-analysis of the deposited data

How the results depend on the processing

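With all 4 libraries, every scaling, filter and test tried left the direction of each member as reported. DESeq2 called 7 genes where edgeR's quasi-likelihood test called 0. The legacy quasi-likelihood method, chosen after seeing the data, left 1 member at an unadjusted p under 0.05, Hspa8, and so did the replicate block; the median over the members was -0.29 with the stricter filter, which drops Hspa1a and Hspa1b. Under the block 758 genes were at an unadjusted p under 0.05, against 780 without it, and 0 passed the adjusted threshold in either fit. Deviations of same-numbered libraries from their genotype means correlated at -0.0074 across genes, so the numbers were not taken to pair the libraries. With each library left out in turn, the genes called ranged from 0 to 1 (Usp33, without p53R248W/+ replicate 2), genes at an unadjusted p under 0.05 from 336 to 1083, members at that level from 1 to 3 and the members' median from -0.55 to -0.13. Hspa1a ranged from -3.46 to 0.40, Hspa1b from -1.45 to 0.087 and Hsph1 from -0.29 to 0.22. Other genes whose direction turned were Dnajc15 (-1.58 to 0.29), Hsp90b1 (-0.0043 to 0.16), Egr1 (-0.52 to 0.057), Hspb6 (-0.68 to 0.84) and Hsf2 (-0.27 to 0.14). Leaving out 1 library leaves a genotype with a lone sample, which is assumed to vary like the other genotype. The biological coefficient of variation, as edgeR names 1 common value for the spread over all tested genes, was 46.0%. This limits what 2 libraries per genotype can show, but it is not the spread of each member. The SE of the members' log2 fold changes ran from 0.12 (Hsp90ab1) to 1.64 (Hspa1b).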
